A study of Homo sapiens with 6 samples.

Results

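The genes described here are 10 ligands through which a tumour cell can restrain or stimulate T cells, natural killer cells and phagocytes: TNFSF9, CD70, TNFSF4, CD274, PDCD1LG2, CD276, PVR, PVRL2, CD47 and LGALS9. They were chosen by name from the platform annotation, where PVRL2 is the older symbol of NECTIN2, and they are 10 of the 18336 genes that a probe of their own measured. The choice was made with drug and control values of these same arrays already known. Their values in that comparison are therefore a description, no test of them is offered, and their calls are given beside the share of all genes that was called. The 10 genes had 15 probes, and probes that name several genes were left out.

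The 6 flasks were labelled NCI-H446, a long-used cell line from a human small cell lung cancer, and each was measured on 1 single-colour Phalanx OneArray. The 3 control flasks (control 2, 5 and 6) received 15 µl of DMSO, a solvent for drugs, and the 3 drug flasks (drug 1, 3 and 4) received a chemotherapy drug that the labels do not name. They give no dose, exposure time or amount of solvent for the drug flasks. All flasks shared the line, and the labels describe separate flasks, so the spread between arrays is that between flasks of 1 line. The free-text source names number the DMSO volume and the line upward from sample to sample, and the characteristics, which give 1 volume and 1 line throughout, were used instead.

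Costimulatory ligands of the TNF superfamily act as trimers at the cell surface. TNFSF9 (4-1BB ligand) binds TNFRSF9, CD70 binds CD27, and TNFSF4 (OX40 ligand) binds TNFRSF4, and each of these receptors promotes the survival and function of activated lymphocytes. CD274 (PD-L1) and PDCD1LG2 (PD-L2) bind the inhibitory receptor PD-1, encoded by PDCD1, and CD276 (B7-H3) is a relative of both that is common on solid tumours. PVR (CD155) and PVRL2 (CD112) are adhesion molecules that between them engage the activating receptor CD226 and the inhibitory receptors TIGIT, CD96 and PVRIG. Not each of these receptors binds both. CD47 restrains phagocytes through SIRPA, and galectin-9, the product of LGALS9, binds glycans on receptors such as TIM-3.

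TNFSF9, CD274, CD47, CD70 and PVRL2 were higher in the drug flasks, and PDCD1LG2 was lower. TNFSF9 changed most, by 22.8-fold. The ligands of PD-1 changed in opposite directions, with CD274 at 3.99-fold higher and PDCD1LG2 at 4.20-fold lower. These sizes depend on the setting, at 3.68 and 3.17 with 50 added to the intensity, and at 2.69 for CD274 with the mean of its probes. CD276, PVR, TNFSF4 and LGALS9 were not called. Read from the brightest probe of each gene, 5 of the 10 ligands were called higher, where 17.6% of all genes were, and 1 was called lower, where 17.5% of all genes were. A call is an adjusted p below 0.05 in the limma fit over all probes, and 35.1% of genes were called in either direction. The median log2 change of the 10 ligands was 0.47, against 0.0075 over all genes.

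Markers were read from the same arrays, on a scale of log2(intensity + 1). A group mean is called dim where it lies under 6.86, the lower quartile of all normalized values. Of 11 measured markers of small cell lung cancer and of epithelium, 3 were dim in the control flasks and 2 in the drug flasks. NEUROD1 and GRP were dim in both groups. INSM1 and DLL3 were not dim in either, and NCAM1, an adhesion molecule of neuroendocrine cells, rose from 7.20 to 12.28 and ENO2, a neuronal enolase, from 12.55 to 13.63. Of the 11, 5 were called higher and 0 lower, or 45.5% higher against 17.6% of all genes. CHGA, at 8.44 and 8.51, INSM1 and DLL3 were among the 6 not called. The summed normalized intensity of these 11 was 9625 to 11115 in the control flasks and 20286 to 26218 in the drug flasks. Of 13 blood cell markers, 4 were dim in both groups, among them the leukocyte marker PTPRC at 5.64 and 5.30. CD14, a monocyte marker, rose from 10.80 to 11.55, and the T cell marker CD3D, at 12.26 and 12.45, was not called. CD14 was the 1 marker of the 13 called higher, or 7.69% against 17.6% of all genes, and 0 were called lower. The sum of the 13 was 10118 to 10318 against 11943 to 12754. Of 10 markers of fibroblasts and endothelium, COL1A1 and ACTA2 fell, by 2.12 and 2.68 on the log2 scale. They were the 2 called lower, or 20% of the list against 17.5% of all genes. The other 8, with COL3A1 and DCN dim in both groups, were not called. The sum of the 10 was 64700 to 69574 against 13278 to 16132. The sums of all 3 lists did not overlap between groups, but a few bright probes make up most of each. Over the markers that were not called, chosen after their values were seen, the sums overlapped for the 6 left of small cell lung cancer and epithelium (2634 to 3081 against 3043 to 3393) and for the 8 left of fibroblasts and endothelium (2611 to 3311 against 2509 to 3161). For the 12 left of blood they did not overlap, at 8406 to 8579 against 8823 to 9845. Leaving out called markers removes those that differ between groups, so an overlap of these sums cannot show an equal mix of cells. The part of these markers in the ligand values was not tested. In RNA from whole flasks, fewer cells of a kind and less RNA per cell cannot be told apart.

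Sequence is shown for the promoters of the pair of ligands with the largest rises and of TNFRSF9, the receptor of TNFSF9, because these 3 genes rose together. The letters are the 250 bases before the annotated start in RefSeq on GRCh38.p14, read 5′ to 3′ on the strand of the gene, at chr19:6530776-6531025 (plus strand) for TNFSF9, chr9:5450292-5450541 (plus strand) for CD274 and chr1:7940840-7941089 (minus strand) for TNFRSF9. Capitals mark matches to the motifs named in the next paragraph.
TNFSF9: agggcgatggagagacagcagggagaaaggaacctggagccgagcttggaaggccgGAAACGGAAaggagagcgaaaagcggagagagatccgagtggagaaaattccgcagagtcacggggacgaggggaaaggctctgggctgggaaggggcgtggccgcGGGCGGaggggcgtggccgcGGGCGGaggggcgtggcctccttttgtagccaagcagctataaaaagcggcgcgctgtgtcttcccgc
CD274: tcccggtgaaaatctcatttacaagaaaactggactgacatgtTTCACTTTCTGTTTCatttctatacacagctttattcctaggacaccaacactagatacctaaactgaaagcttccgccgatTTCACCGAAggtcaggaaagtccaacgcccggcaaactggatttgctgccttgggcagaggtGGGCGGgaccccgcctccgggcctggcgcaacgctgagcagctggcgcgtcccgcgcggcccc
TNFRSF9: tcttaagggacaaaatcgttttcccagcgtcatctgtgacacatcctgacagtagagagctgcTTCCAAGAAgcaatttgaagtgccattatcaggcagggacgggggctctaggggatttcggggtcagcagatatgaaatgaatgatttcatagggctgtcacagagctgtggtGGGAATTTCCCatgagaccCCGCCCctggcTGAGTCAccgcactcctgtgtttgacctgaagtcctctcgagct

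The motifs searched on both strands were the STAT-binding GAS element TTCNNNGAA, the interferon regulatory factor (IRF) element GAAANNGAA, the AP-1 element TGANTCA, the GC box GGGCGG, the E-box CACGTG and the 10-letter NF-kappaB consensus. TNFSF9 had 1 IRF element and 2 GC boxes in this window. CD274 had 1 GAS element beginning 125 bases before the start, 2 IRF elements that overlap each other, and 1 GC box. TNFRSF9 had 1 GAS element, 1 AP-1 element, 1 GC box and 2 overlapping NF-kappaB matches beginning 74 and 73 bases before the start. Among 35116 promoters of the same length, 6.57% held the GAS element, 6.88% the IRF element, 6.57% the AP-1 element, 42.6% the GC box, 6.34% the E-box and 9.96% the NF-kappaB consensus. Of the 10 ligands, 8 had a promoter in the table, the exceptions being PDCD1LG2 and CD70. None of those 8 held the AP-1 element, the E-box or the NF-kappaB consensus. CD276, PVRL2 and CD47 held GC boxes alone, with 7, 3 and 6 matches. Some of the matches in CD276 and in CD47 overlap the next. PVR, TNFSF4 and LGALS9 held none of the 6 motifs. A match is a run of letters and not a shown binding site.

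**Figure D1:**
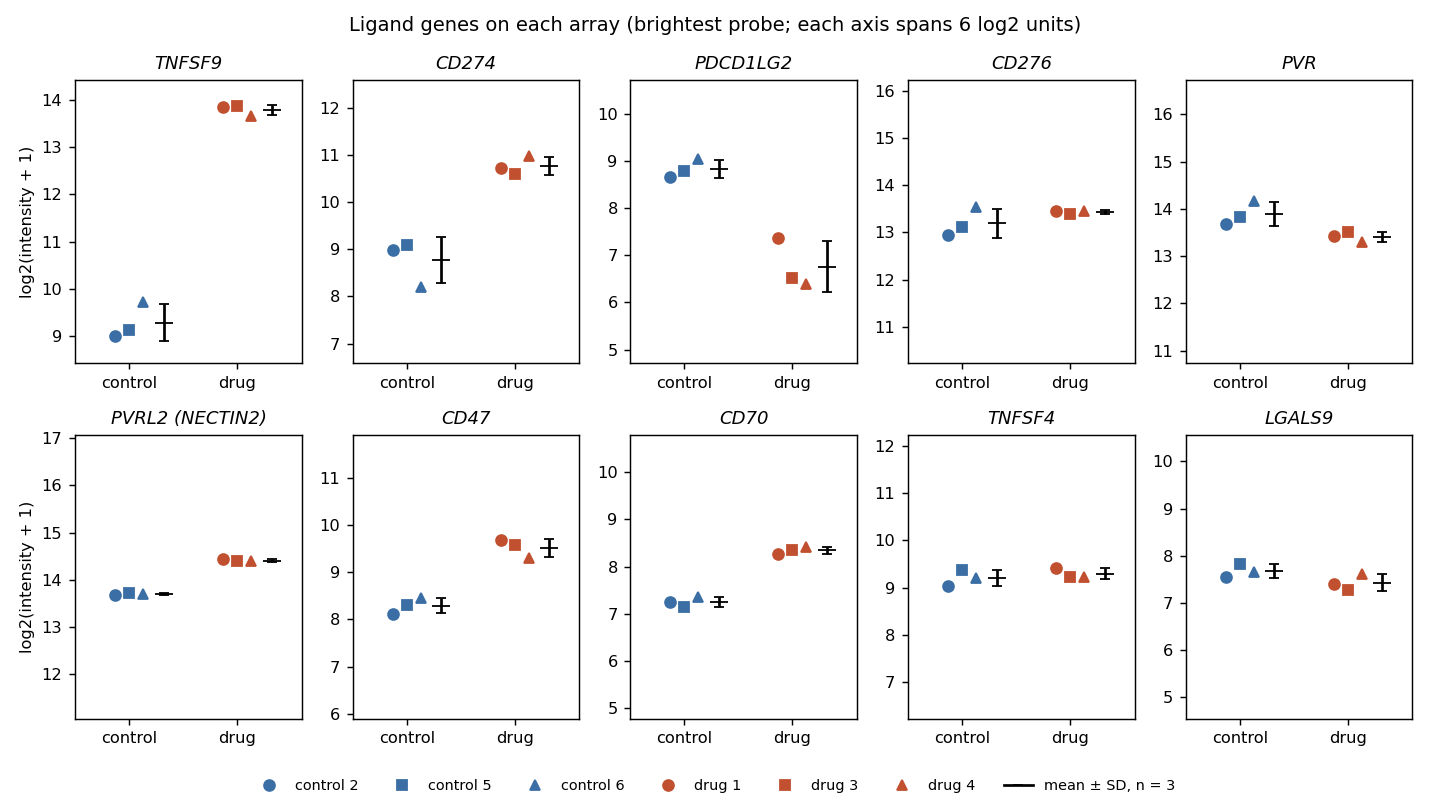
Log2(intensity + 1) of the 10 ligands on each of the 6 arrays, read from the brightest probe, with the mean and SD of each group of 3 in black and every vertical axis 6 log2 units tall. TNFSF9, CD274, PVRL2, CD47 and CD70 show drug points wholly above the control points, PDCD1LG2 and PVR wholly below, and the other 3 ligands overlap.

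Values below are log2(intensity + 1) after quantile normalization between arrays, given for control 2, 5 and 6 and then for drug 1, 3 and 4. They compare arrays for 1 probe, and the levels of different probes cannot be set against each other. Among the TNF superfamily ligands, TNFSF9 read 8.99, 9.14 and 9.72 in the control flasks and 13.84, 13.86 and 13.67 in the drug flasks. In the deposited intensities these were 532, 512 and 794 against 14178, 14112 and 13313. The lowest drug array lay 3.95 log2 units above the highest control array, and the control flasks, with control 6 the highest, were spread more widely (SD 0.39) than the drug flasks (SD 0.11). The group means were 9.28 ± 0.39 and 13.79 ± 0.11 (SD, n = 3 each), a log2 change of 4.51 (SE 0.202).

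CD70 read 7.26, 7.15 and 7.36 in the control flasks and 8.27, 8.36 and 8.42 in the drug flasks. The groups did not overlap and each was tight, with means of 7.25 ± 0.10 and 8.35 ± 0.071 (SD, n = 3), a 2.13-fold rise. With 50 added to the intensity in place of 1, the fold became 1.86. TNFSF4 read 9.03, 9.37 and 9.21 in the control flasks and 9.42, 9.23 and 9.23 in the drug flasks. Its groups overlapped, and its log2 change was 0.09 (SE 0.136). Of the 3 ligands of this family, TNFSF9 and CD70 were therefore called and TNFSF4 was not.

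Of the ligands of the B7 family, CD274 on its brightest probe read 8.99, 9.09 and 8.21 in the control flasks and 10.71, 10.60 and 10.97 in the drug flasks. Control 6 was the lowest array, and the groups were apart by 1.51 log2 units. The means were 8.76 ± 0.49 and 10.76 ± 0.19 (SD, n = 3), a log2 change of 2.0 (SE 0.249). Its other probe read 5.54, 5.76 and 5.53 against 6.56, 6.13 and 6.72. That probe was also called higher, by 1.81-fold. It was dim in both groups. With 50 added to the intensity in place of 1, the dimmer probe still passed and the fold of the brighter probe became 3.68.

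PDCD1LG2 had 1 probe, which read 8.66, 8.77 and 9.05 in the control flasks and 7.37, 6.51 and 6.38 in the drug flasks. In deposited intensities it went from 418, 389 and 491 to 173, 103 and 93.8. All drug arrays lay below all control arrays, drug 1 less far than the other two, and the drug spread (SD 0.54) was the widest of any ligand. The means were 8.83 ± 0.20 and 6.76 ± 0.54 (SD, n = 3), a log2 change of -2.07 (SE 0.270). Its drug mean was dim, and the fold of 4.20 became 3.17 with 50 added. The 3 drug flasks thus held more CD274 signal and less PDCD1LG2 signal than any control flask.

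CD276 read 12.93, 13.10 and 13.53 in the control flasks and 13.44, 13.38 and 13.45 in the drug flasks on its brightest probe. The drug arrays lay within the control range, with a log2 change of 0.24 (SE 0.170), and the other probe, at 0.52 (SE 0.255), was not called either. Without control 6, its highest control array, CD276 was called at a log2 change of 0.41.

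Of the nectin ligands, PVRL2 was the steadiest member, at 13.68, 13.73 and 13.70 in the control flasks and 14.44, 14.40 and 14.39 in the drug flasks. Its SD of 0.022 and 0.025 (n = 3 each) was the lowest of the 10 ligands in both groups, and the groups were apart by 0.66 log2 units. The log2 change was 0.71 (SE 0.106) on this probe and 0.57 (SE 0.126) on the other, both called higher. PVR read 13.68, 13.83 and 14.17 in the control flasks and 13.42, 13.51 and 13.30 in the drug flasks on its brightest probe. The drug arrays all lay below the control arrays, by 0.17 log2 units at the nearest, but the log2 change of -0.48 (SE 0.158) was not called. In 7 of 14 alternative settings it was, each read from this same probe. With the mean of its 3 probes the log2 change was -0.22 and was not called. The other 2 probes of PVR, at 0.04 (SE 0.178) and -0.22 (SE 0.166), had overlapping groups and were not called.

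CD47 read 8.12, 8.30 and 8.44 in the control flasks and 9.67, 9.57 and 9.30 in the drug flasks. The groups were apart by 0.85 log2 units, with means of 8.29 ± 0.16 and 9.51 ± 0.19 (SD, n = 3), a 2.34-fold rise. LGALS9 read 7.55, 7.84 and 7.67 in the control flasks and 7.41, 7.27 and 7.61 in the drug flasks. Its groups overlapped, and its log2 change was -0.25 (SE 0.143). In all, the 3 drug arrays lay wholly above the 3 control arrays for 5 ligands, as for 23.8% of all genes, and wholly below for 2, PDCD1LG2 and PVR, as for 23.3% of all genes.

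**Figure D2:**
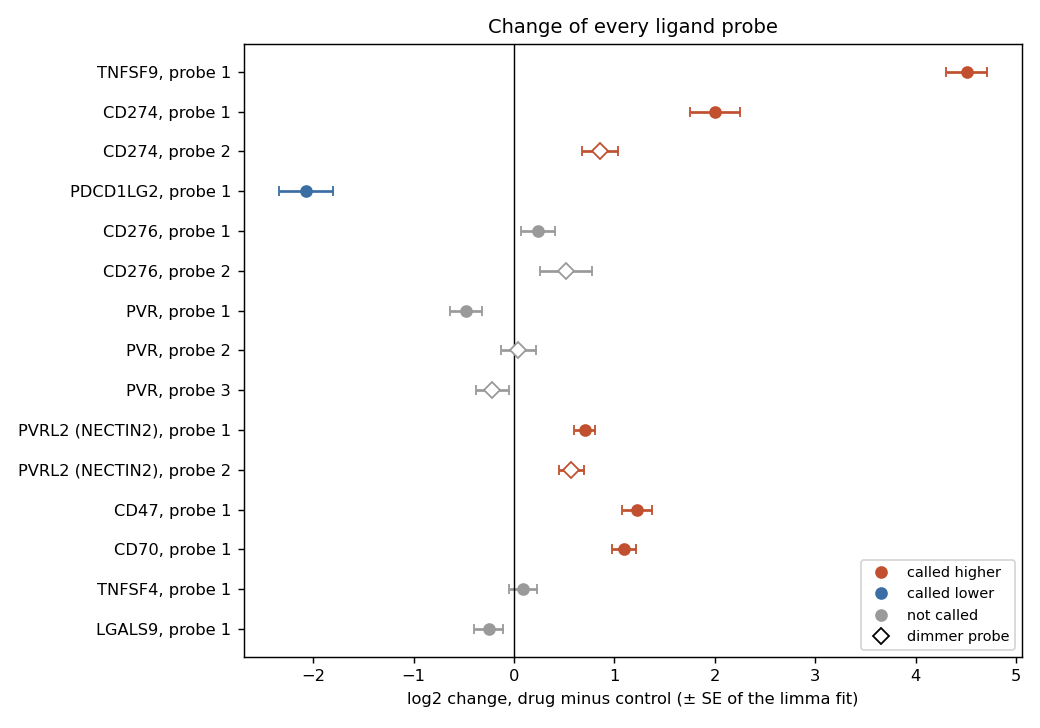
Log2 change, drug minus control, of all 15 probes of the 10 ligands, with the SE of the limma fit as bars. Filled circles are the brightest probe of a gene and open diamonds its dimmer probes. Both probes of CD274 and of PVRL2 lie on the same side of 0, with CD274 at 2.0 and 0.86, while the 3 probes of PVR range from -0.48 to 0.04.

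By the root mean square difference of 6 array values, each centred on the mean of its own gene, the genes outside the ligands with a pattern most like that of TNFSF9 were HPCAL4 (0.127 log2 units), RGL1 (0.175) and TNNI3 (0.191). Their log2 changes were 4.56 (SE 0.140), 4.47 (SE 0.123) and 4.26 (SE 0.184). The control mean of HPCAL4 was dim, so the size of its change depends on the added constant. With 50 added it stood at 14.4-fold in place of 23.6-fold, beside 21.1-fold for TNFSF9. TNNI3, which was not dim, also moved, to 14.9-fold from 19.2-fold, and RGL1 moved less, to 20.55-fold from 22.09-fold. With 2 groups of 3 arrays, this likeness is mostly that of 1 difference between groups.

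PDCD1LG2 is the next measured gene after CD274 on chromosome 9, and TNFSF9 and CD70 lie close together on chromosome 19 with TNFSF14, another ligand of the TNF superfamily, in the gene order of RefSeq on GRCh38.p14. The nearest measured genes on the other side of CD274 were PLGRKT, a plasminogen receptor, which rose by 0.62 (SE 0.123, adjusted p = 0.00753), and RLN1, a relaxin, at 0.75 (SE 0.516, adjusted p = 0.351). Without control 6, RLN1 stood at 0.12, and its other probe, dim in both groups, at 0.15. Beyond PDCD1LG2, RIC1, which acts in membrane traffic at the Golgi, rose by 0.91 (SE 0.278, adjusted p = 0.0427), a call lost in 7 of 14 alternative settings. The other probe of RIC1 was called higher as well, at 1.44 (SE 0.158, adjusted p = 0.000493). Around CD274, PDCD1LG2 was thus the single gene of the 5 with a lower mean in the drug flasks.

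On chromosome 19, TNFSF14 rose from 8.32 ± 0.26 to 9.64 ± 0.19 (SD, n = 3), by 2.51-fold (adjusted p = 0.00108), and by 2.09-fold on its other probe, dim in the control flasks. DENND1C, an exchange factor for RAB GTPases, rose by 0.88 (SE 0.118, adjusted p = 0.00117). TUBB4A, a tubulin, stood at 0.74 (SE 0.251, adjusted p = 0.0635) and was called in 5 of 14 alternative settings. All 5 genes in this stretch had higher means in the drug flasks, by 0.74 to 4.51 log2 units. TNFSF9 and CD70 among them were chosen with these values known. Over all genes the median log2 change was 0.0075, and 17.6% were called higher. The stretch as a whole was not tested.

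**Figure D3:**
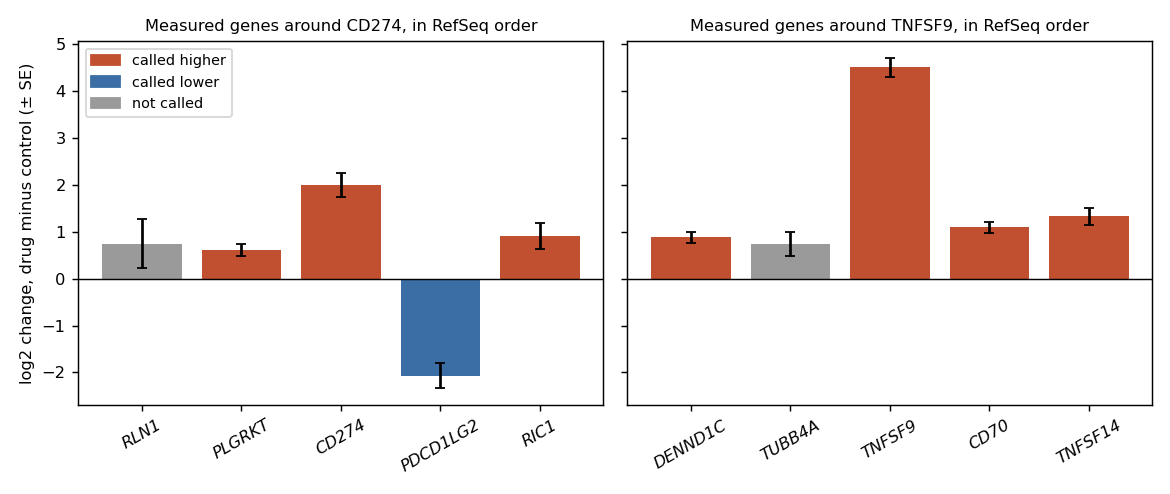
Log2 change, drug minus control, of CD274 and TNFSF9 and the 2 nearest measured genes on each side, in chromosomal order, with the SE of the limma fit as error bars and colour for the call. PDCD1LG2 points down at -2.07 beside CD274 at 2.0, while TNFSF9 at 4.51, CD70 at 1.09 and TNFSF14 at 1.33 all point up.

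Genes around the ligands were read from 7 lists with 104 measured genes in all, of which 15 were called higher and 18 lower, and the median log2 change was -0.05. These are 14.4% and 17.3% of the 104, near the 17.6% and 17.5% of all genes called higher and lower. Both group means were dim for 21 of the 104, and for 3149 of all 18336 genes. Of 15 receptors and binding partners, 2 rose and 1 fell, and the remaining 12 missed the threshold, for a median of -0.09. The called share was 20%, against 35.1% of all genes, but 6 of the 15 were dim in both groups. TNFRSF9, the receptor of TNFSF9, rose with its ligand, from 9.07, 9.26 and 8.66 in the control flasks to 11.49, 11.54 and 11.55 in the drug flasks. That is a log2 change of 2.53 (SE 0.170, adjusted p = 6.76e-05), with 2.27 (SE 0.125) on its other probe. THBS1, thrombospondin 1, a matrix protein that binds CD47, rose by 2.97 (SE 0.171, adjusted p = 3.88e-05). SIRPA, the receptor of CD47 on phagocytes, read 11.61, 12.03 and 12.33 in the control flasks and 10.56, 10.63 and 10.14 in the drug flasks, a fall of 2.93-fold (adjusted p = 0.00157).

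Of 15 other ligands of the B7 and butyrophilin families, 1 rose and 5 fell, and the remaining 9 missed the threshold, for a median log2 change of -0.05. Those called higher were 6.67% of the list and those called lower 33.3%, against 17.6% and 17.5% of all genes. Among the 9, ICOSLG, the ligand of the costimulatory receptor ICOS, stood at 0.65 on its brightest probe, while its other probe was called lower at -1.09 (SE 0.170, adjusted p = 0.00242). NCR3LG1 (B7-H6), a ligand of the natural killer receptor NKp30, changed by -1.55 (SE 0.177, adjusted p = 0.000603), but its other probe stood at 0.05 (SE 0.139) and did not pass. BTN2A1 and BTN3A1, butyrophilins that present phosphoantigen signals to gamma-delta T cells, changed by -1.48 (SE 0.163, adjusted p = 0.000506) and -1.31 (SE 0.115, adjusted p = 0.000193). The other two that fell were their relatives BTN3A2 (-1.11, with -0.37 on its other probe, which did not pass) and BTN3A3 (-0.95), and the gene that rose was VSIR, the inhibitory ligand VISTA (1.16). These 3 were named after their values were seen. Butyrophilin genes share sequence, so their probes may not tell BTN3A1, BTN3A2 and BTN3A3 apart.

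Of 14 other ligands of the TNF superfamily, TNFSF14, described above, was the 1 that rose, none fell, and the remaining 13 missed the threshold, for a median of 0.03. The called share was 7.14%, against 35.1% of all genes, but 4 of the 14 were dim in both groups. Among the 13, EDA, the ligand ectodysplasin A, stood at 0.36 on its brightest probe, while another was called higher at 1.54 (SE 0.170, adjusted p = 0.00052). Of 9 other nectins and nectin-like molecules, 3 rose and 0 fell, with a median of 0.20 and a called share of 33.3%, against 35.1% of all genes. Another 3 of the 9 were dim in both groups. AFDN (afadin), which binds nectins inside the cell, stood at -0.06 on its brightest probe and was called lower on another, at -0.67 (SE 0.123, adjusted p = 0.00511). The 3 that rose were the adhesion molecules CADM4, at 1.93 (SE 0.127, adjusted p = 6.27e-05), CADM1, a ligand of the lymphocyte receptor CRTAM, at 1.63 (SE 0.180, adjusted p = 0.000512), and CADM3, at 1.28 (SE 0.121, adjusted p = 0.000266) and 1.94 on its other probe. Of 10 other galectins and relatives, 1 fell and 0 rose, with a median of -0.06 and a called share of 10%, against 35.1% of all genes. That was LGALSL, a galectin-like protein, at -0.68 (SE 0.168, adjusted p = 0.0185), a call lost without control 5 and against a minimum log2 change of 0.5, while its other probe stood at -0.98 and passed.

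Of 19 other surface molecules that immune cells read, 3 rose and 5 fell, and the remaining 11 missed the threshold, for a median of -0.17. These were 15.8% higher and 26.3% lower, against 17.6% and 17.5% of all genes. CD200, an inhibitory ligand for myeloid cells, read 13.14, 13.15 and 12.59 in the control flasks and 9.22, 9.22 and 9.52 in the drug flasks. That is a 12.5-fold fall (adjusted p = 2.69e-05), and 15.1-fold on its other probe, larger in size than the change of any ligand but TNFSF9. CD58, the adhesion ligand of CD2 on T cells, fell by 1.42 (SE 0.123, adjusted p = 0.000185), and CD24, a ligand of Siglec-10 on macrophages, rose by 1.38 (SE 0.125, adjusted p = 0.000221). The remaining calls, named after their values were seen, were CALR (1.24) and CD46 (0.54) up and NT5E (-1.21), CEACAM1 (-1.05) and ICAM3 (-0.54) down.

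Of 23 genes known to control PD-L1 or the CD47 signal, 5 rose and 6 fell, and the remaining 12 missed the threshold, for a median of -0.05. These were 21.7% higher and 26.1% lower, against 17.6% and 17.5% of all genes. NFKB1, an NF-kappaB subunit, changed by -2.54 (SE 0.112, adjusted p = 1.76e-05), IRF2, an interferon regulatory factor, by -1.88 (SE 0.174, adjusted p = 0.00024), and IFNGR2, a chain of the interferon-gamma receptor, by -1.67 (SE 0.123, adjusted p = 9.49e-05). The other three that fell were CMTM4 (-1.23), SPOP (-0.64) and COPS5 (-0.55). These and the 5 that rose were named after their values were seen, and the latter were STAT3 (1.38), HDAC3 (1.31), JAK1 (1.11), IRF1 (0.61) and GSK3B (0.56). IRF1 was called at adjusted p = 0.0379, and its other probe, at 0.58 (SE 0.206, adjusted p = 0.0733), did not pass. The other probes of STAT3, JAK1 and GSK3B were called higher. STUB1, a ubiquitin ligase, did not pass and scattered within both groups, at 11.08, 4.13 and 11.20 in the control flasks and 1.99, 3.18 and 12.59 in the drug flasks. Over the 7 lists, 6 further genes were not analysed here.

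**Figure D4:**
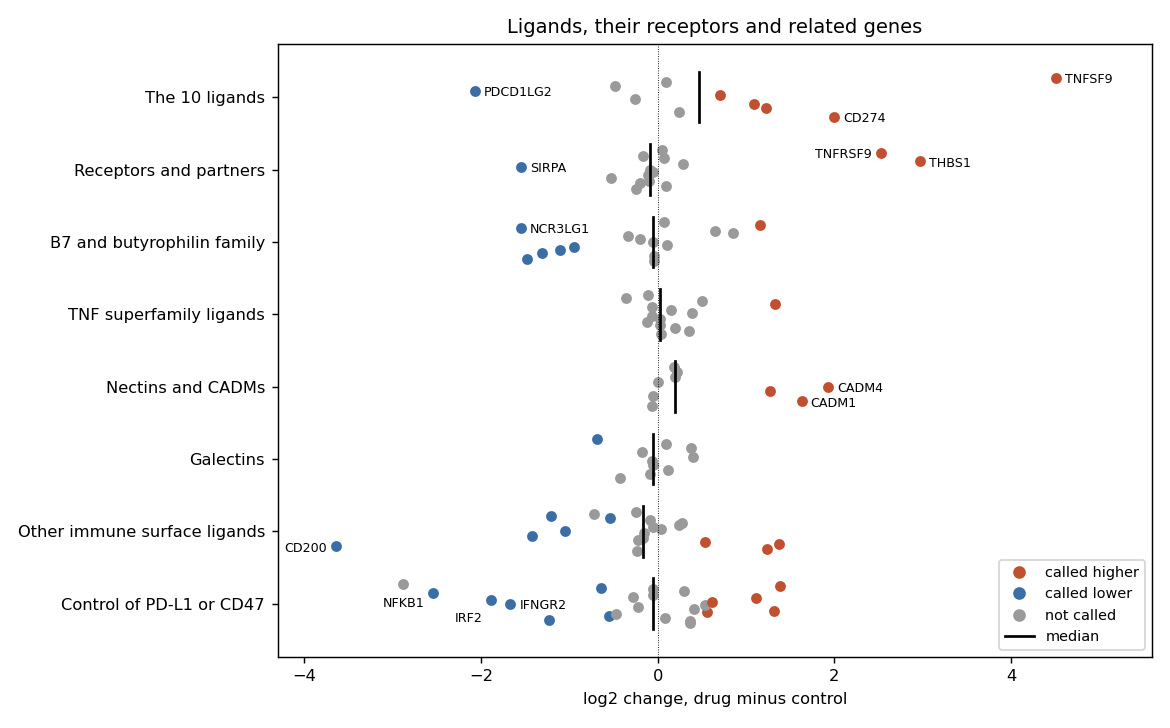
Log2 change, drug minus control, of the 10 ligands and of the genes in 7 related lists, 1 point a gene read from its brightest probe, with colour for the call and a black bar for the median of each list. The ligands have a median of 0.47, the receptors and partners -0.09, with TNFRSF9 at 2.53 and THBS1 at 2.97 to the right, and CD200 is at -3.64.

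**Figure D5:**
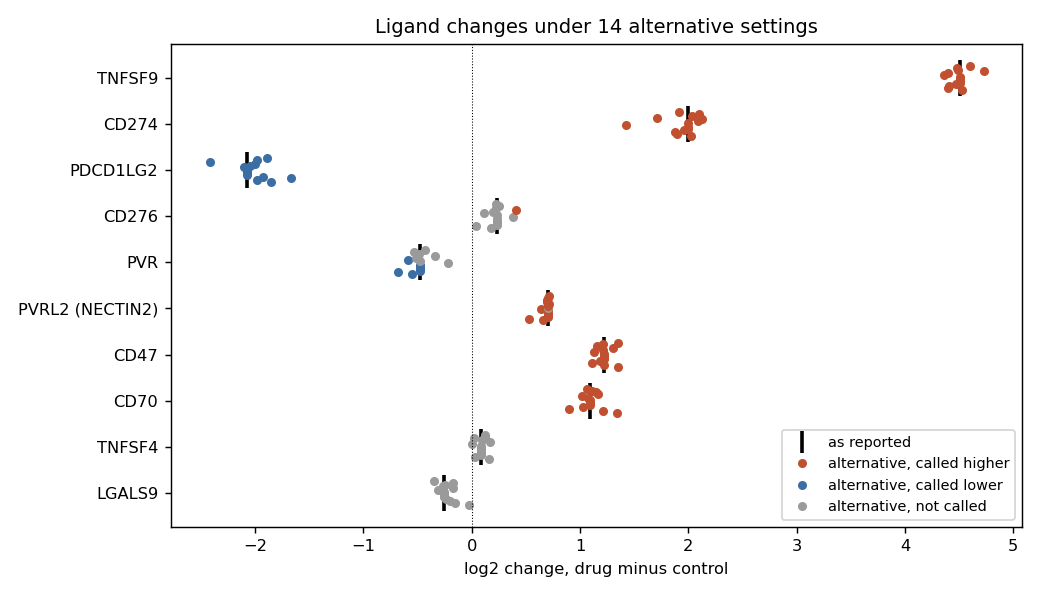
Log2 change, drug minus control, of the 10 ligands as reported (black bar) and under each of 14 alternative settings (points, coloured by the call in that setting). TNFSF9 lies between 4.36 and 4.73, CD274 between 1.43 and 2.13 and PDCD1LG2 between -2.42 and -1.67, and PVR changes its call in 7 settings.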

How the data were processed

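Gene expression was measured in 3 control and 3 drug flasks, 1 single-colour array each, with Cy5-labelled amplified RNA, per the labels' protocols. The authors deposited linear intensities of 31741 probes, and no source used here states how these were background corrected or scaled. Of all values, 462 on control 2, 968 on control 5 and 1 on drug 4 lay below 0. Median intensity ran from 376 to 476 per array. The array medians spanned 0.337 log2 units, over the set limit of 0.1, so the intensities were quantile normalized, set to 0 where negative, increased by 1 and log2 transformed. With arrays, their number limits the precision. The median SD within groups was 0.196.

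GEO's platform annotation gave 24740 probes 1 gene, 977 several and 6024 none. Symbols were updated through synonyms in RefSeq (GRCh38.p14): 16811 were current, 1497 were updated and 57 kept. A gene was read from its brightest probe by the mean of the 6 arrays.

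Groups were taken from the titles. Drug was compared with control in limma 3.58.1 (R 4.3.3, lmFit and eBayes, two-sided, no covariate), with Benjamini-Hochberg adjustment over all 31741 probes. The functions were run on simulated data as a check of the code. Far fewer probes were changed there than were called here, so it does not test the normalization at this scale. SD is between arrays, and SE is that of the fit. The members, the 7 wider lists and the marker lists were chosen with earlier results of these data known. Named were all members, up to 3 called genes with the largest change from each list, 2 measured neighbours on each side of CD274 and TNFSF9, and the 3 genes most like TNFSF9. Other genes of the lists that are given with values, ICOSLG, EDA, AFDN and STUB1 included, were named after their values were seen. So were the named markers that were not dim. Alternatives were other scalings, 16 or 50 added, brighter probes alone, a variance trend, probe means, a minimum log2 change of 0.5, and leaving out each array.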

Additional observations from a re-analysis of the deposited data

How the results depend on the processing

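No paired analysis was possible because the control flasks are numbered 2, 5 and 6 and the drug flasks 1, 3 and 4, with no number in common. TNFSF9, CD274, PDCD1LG2, CD47 and CD70 kept their direction and their call in all 14 alternatives, with log2 changes of 4.36 to 4.73, 1.43 to 2.13, -2.42 to -1.67, 1.11 to 1.35 and 0.89 to 1.34. CD274 was lowest with the mean of its 2 probes. PVRL2 ran from 0.53 to 0.72 and lost its call against a minimum log2 change of 0.5. The count of ligands called lower was 2 in place of 1, PVR being added, with the values as deposited, median centring, 50 added, 16 added, brighter probes alone and a variance trend. Leaving out 1 array gave 1 to 2 ligands called lower (2 without control 2) and 5 to 6 called higher (6 without control 6, where CD276 was added). The cause was not tested. TNFSF4 and LGALS9 were not called in any alternative, with log2 changes of 0.0045 to 0.17 and -0.35 to -0.02. Calls over all genes went from 6438 to 2820 against a minimum log2 change of 0.5, which by construction asks for more. With the values as deposited, the median log2 change of all genes was 0.20, against 0.0075 as reported, so every change on that scale is to be read against 0.20. No value of a named gene reversed. The other 25 named genes gave 350 alternative values, of which 11 lost a call and 5 gained one. Dim means, such as PDCD1LG2 with the drug and the dimmer CD274 probe, have folds that depend on the added constant. So does the fold of CD70, whose means were low but not dim.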

Other observations

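A pair of probes names LGALS9 together with its near-identical copies and was not used for the gene. The probe shared with LGALS9C read 12.16 ± 0.024 in the control flasks and 12.36 ± 0.14 in the drug flasks (SD, n = 3 each). Its 3 drug arrays lay above its 3 control arrays, as those of 23.8% of all genes did, and it was not called. The probe shared with LGALS9B and LGALS9C read 8.44 ± 1.10 and 7.99 ± 0.64 (SD, n = 3 each), with overlapping groups, and was not called.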
